A study of Mus musculus with 18 samples.

Results

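SSBP1 knockdown and HSF1 knockdown were compared directly with each other in heat-shocked mouse embryonic fibroblasts, across all genes on the array. The comparison rests on 6 of the 18 arrays of the series, 3 of MEF cells with SSBP1 knockdown (SSBP1-KD HS) and 3 with HSF1 knockdown (HSF1-KD HS). The members were chosen by label alone, and every gene was tested. All cells came from 1 immortalized MEF line, infected for 2 h with an adenovirus that expressed a short hairpin RNA against mouse Ssbp1, against mouse Hsf1 or of scrambled sequence (SCR), and then kept for 70 h in normal medium. Cells of all 3 kinds were kept at 37 °C (Cont) or heated at 42 °C for 1 h in a water bath (HS), which gave 6 groups of 3 arrays. Every group, the scrambled control included, carried an adenovirus, and each knockdown on these arrays was made with 1 hairpin, so that a gene's response to the loss of its target and any other response to that hairpin cannot be told apart. The labels do not say that the 3 arrays of a group came from separate cultures, and the spread behind each p-value may therefore be technical.

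HSF1 is the transcription factor that drives the heat shock response: under proteotoxic stress it forms trimers, binds heat shock elements and raises the transcription of heat shock protein (HSP) genes, whose products refold or dispose of damaged proteins. SSBP1 is the mitochondrial single-stranded DNA-binding protein, known for its part in the replication of mitochondrial DNA, and the study asked whether it also acts with HSF1 at heat shock genes. The direct comparison asks at which genes heat-shocked cells short of SSBP1 and heat-shocked cells short of HSF1 differ. All values are log2 signals normalized by the authors with RMA, and a difference is SSBP1-KD HS minus HSF1-KD HS on that scale, so that a positive value means a higher signal in SSBP1-KD HS. A gene was called at a Benjamini-Hochberg adjusted p under 0.05 in limma. In bulk RNA such as this, fewer cells of a kind and less RNA per cell cannot be told apart.

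Heat shock elements are built from inverted GAA units. A head-to-head or tail-to-tail pair of them (GAANNTTC or TTCNNGAA, each of which reads the same on both strands, with overlapping matches counted) was searched in the 250 bases before the RefSeq start of each gene (GRCm38.p6). Such a pair was found before 2063 of 15563 measured genes with a promoter sequence, or 13.3%, and before 8 of the 10 chaperone genes of the study that have one. Dnajb1 and Hspb8 had no match in this window. The windows shown here belong to 5 chaperone genes that were higher in SSBP1-KD HS than in HSF1-KD HS, and capitals mark the paired GAA units.
Hspa1a promoter (chr17:34972228-34972287, minus strand): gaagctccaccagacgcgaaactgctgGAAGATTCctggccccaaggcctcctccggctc
Hspb1 promoter (chr5:135887785-135887844, plus strand): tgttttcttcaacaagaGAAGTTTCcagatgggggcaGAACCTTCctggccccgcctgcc
Hsph1 promoter (chr5:149636337-149636396, minus strand): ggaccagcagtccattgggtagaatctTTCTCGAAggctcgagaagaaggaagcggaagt
Dnaja4 promoter (chr9:54699461-54699520, plus strand): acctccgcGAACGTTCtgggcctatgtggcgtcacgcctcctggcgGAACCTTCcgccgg
Hspe1 promoter (chr1:55088037-55088096, plus strand): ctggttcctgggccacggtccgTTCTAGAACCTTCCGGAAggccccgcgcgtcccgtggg
The pairs in the Hspb1 and Dnaja4 windows lie apart from each other, and those before Hspe1 overlap. A match is a description of the letters and no proof of binding.

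Ssbp1, the target of 1 of the hairpins, had log2 signals of 8.71, 8.57 and 8.67 in the 3 SSBP1-KD HS arrays and of 9.32, 9.35 and 9.13 in the 3 HSF1-KD HS arrays. The groups did not overlap, and the signal was 1.53-fold lower with SSBP1 knockdown (log2 difference -0.61, SE 0.08, adjusted p = 5.67e-05). Against SCR HS the difference was -0.41 (adjusted p = 0.00155), and between the unheated knockdowns it was -0.35 (adjusted p = 0.00437). A second, dimmer Ssbp1 probe set differed by -0.17 (adjusted p = 0.115) and was not called. No probe set named Hsf1 alone was measured, so HSF1 knockdown itself could not be checked on these arrays.

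The medians of the 6 arrays lay between 7.878 and 7.939, but RMA brings medians together, so they do not measure quality. Arrays of a group correlated at 0.994 to 0.997 and arrays of different groups at 0.99 to 0.991. The mean absolute residual, the distance from the group means, was 0.0881 in HSF1-KD HS replicate 3. It was 0.071 and 0.07 in HSF1-KD HS replicates 1 and 2, and 0.0782 to 0.0851 in SSBP1-KD HS. Of the 10 fibroblast markers, all measured, 4 were lower in SSBP1-KD HS and none was higher, and the mean over the list, from 10.99 in the lowest SSBP1-KD HS array, was below the 11.08 to 11.12 of the HSF1-KD HS arrays in all 3 SSBP1-KD HS arrays. Those called were Pdgfrb (-0.39), Dcn (-0.31), Col1a1 (-0.27) and Col1a2 (-0.17), while Vim, encoding the fibroblast filament vimentin, differed by 0.10 and was not called. The Col1a2 call was lost without any 1 of HSF1-KD HS replicates 1, 2 or 3 or of SSBP1-KD HS replicates 1 or 2. None of 6 endothelial and none of 6 blood and macrophage markers was called, with list means of 6.96 to 6.98 against 6.95 to 7.03 and of 7.23 to 7.34 against 7.21 to 7.34. Of 8 epithelial markers 2 were lower (Epcam, -0.55, and Cdh1, -0.22) and Krt14 was higher (0.36, a call lost without SSBP1-KD HS replicate 1 or HSF1-KD HS replicates 2 or 3). Of 8 neural and muscle markers 2 were higher and none was lower, with list means of 7.79 to 7.85 in SSBP1-KD HS above the 7.66 to 7.73 in HSF1-KD HS. These were Acta1 (0.61), the skeletal muscle actin, and Tubb3 (0.26), a neuronal tubulin whose call was lost without HSF1-KD HS replicates 2 or 3 or SSBP1-KD HS replicates 1 or 3. The deposited values carry no detection calls, so absence of a marker could not be stated. Of all genes 11.6% were higher and 14.1% lower in SSBP1-KD HS. The part of these markers in the results that follow was not tested.

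Over all 19938 genes, 2313 (11.6%) were higher in SSBP1-KD HS and 2805 (14.1%) were lower, with a median difference of 0.00. Most differences were small. A fold above 1.5 as well left 253 higher and 287 lower genes, and a fold above 2 left 37 in each direction. The signals of the 3 arrays of one group all lay above those of the other for 8217 genes (41.2%).

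The inducible HSP70 gene Hspa1a showed the largest difference of all. Its log2 signal was 12.11, 12.08 and 12.20 in SSBP1-KD HS and 9.10, 9.14 and 9.16 in HSF1-KD HS. The arrays of SSBP1-KD HS were all far above those of HSF1-KD HS, by 7.96-fold (log2 difference 2.99, SE 0.07, adjusted p = 1.07e-12). The heated mean was 10.7-fold above the unheated mean in SSBP1-KD cells, 1.47-fold in HSF1-KD cells and 19.9-fold in SCR cells, and without heat the 2 knockdowns differed by 0.13 (adjusted p = 0.183). The near-identical copy Hspa1b has no probe set of its own here, so the values may hold RNA of both genes.

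Other HSP genes raised by heat in SCR cells followed with smaller differences, and those with the largest are given here. Dnajb4 differed less than Hspb8 (0.70 against 0.97), although heat raised it more in SCR cells (1.48 against 1.22). Dnajb1, encoding an HSP40 that delivers substrates to HSP70, read 11.41, 11.54 and 11.49 in SSBP1-KD HS and 9.76, 9.70 and 9.54 in HSF1-KD HS. This was a 3.52-fold difference (log2 1.82, SE 0.07, adjusted p = 9.34e-10). Hspb1, a small HSP that holds unfolding proteins, read 13.10, 13.17 and 13.12 against 11.41, 11.46 and 11.26, or 3.37-fold higher (log2 1.75, SE 0.07, adjusted p = 7.02e-10). Hsph1, the HSP110 that exchanges nucleotide on HSP70, read 12.24, 12.28 and 12.25 against 10.54, 10.59 and 10.56, or 3.24-fold higher (log2 1.70, SE 0.07, adjusted p = 2.02e-09). None of these groups overlapped. Dnaja4, another HSP40, read 9.90, 9.81 and 9.78 against 8.71, 8.72 and 8.77 (2.14-fold), and Hspb8, the small HSP that works with Bag3, read 10.68, 10.66 and 10.63 against 9.76, 9.72 and 9.58 (1.96-fold). In HSF1-KD cells the heated and unheated means of Dnajb1, Hsph1, Dnaja4 and Hspb8 lay 0.11 to 0.17 apart on the log2 scale, and those of Hspb1 0.24.

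**Figure D1:**
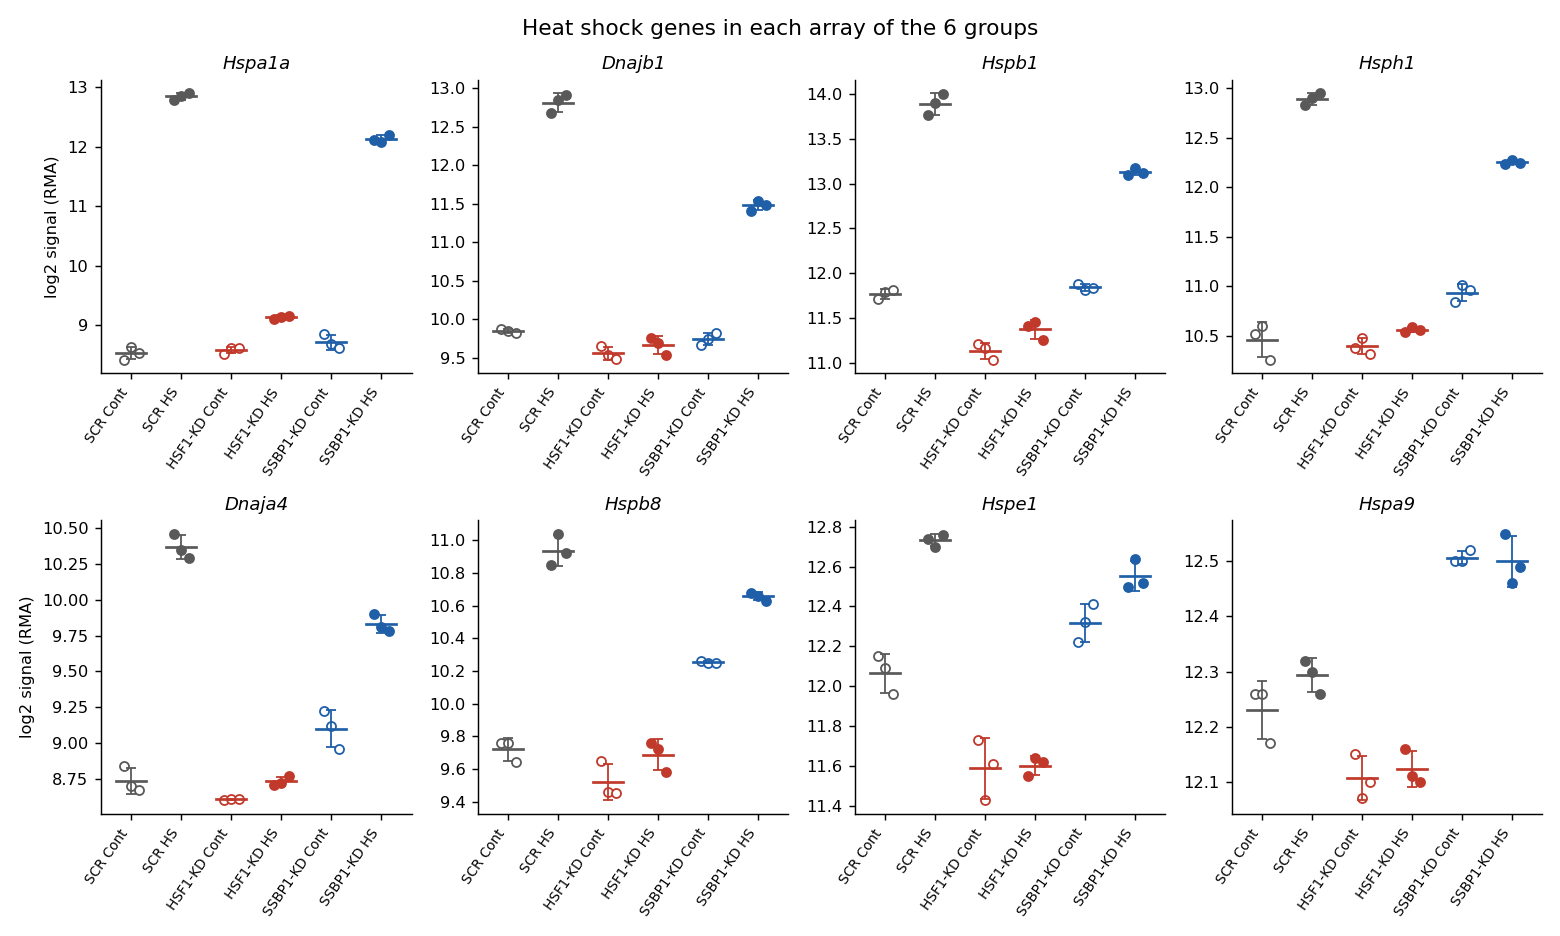
Log2 signal (RMA) of 8 heat shock genes in each array of the 6 groups. Points are arrays (open without heat, filled after heat), lines are group means and bars are SDs over 3 arrays. For Hspa1a the SSBP1-KD HS arrays sit at 12.08 to 12.20, between HSF1-KD HS (9.10 to 9.16) and SCR HS, whereas for Hspa9 they sit at 12.46 to 12.55, above both other heated groups.

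The study names 12 of the measured chaperone genes, most of them picked as heat-inducible on the SCR arrays of this series. It also gave fold changes for these in both knockdowns from the same samples, so their direction is not independent evidence. All 12 were higher in SSBP1-KD HS than in HSF1-KD HS, with a median difference of 0.96, beside the 11.6% of all genes. For 11 of the 12 the mean of SSBP1-KD HS lay between those of HSF1-KD HS and SCR HS. The exception was Hspa9, encoding the HSP70 of the mitochondrial matrix, which was higher in SSBP1-KD HS than in HSF1-KD HS by 0.38 (SE 0.04, adjusted p = 9.05e-06) and than in SCR HS by 0.21 (adjusted p = 0.00136), and which heat changed by only 0.06 in SCR cells. The remaining members of the 12 were Dnajb4 (0.70), Dnaja1 (0.65, and 1.33 on a second probe set), Hsp90aa1 (0.45), Hspd1 (0.67) and Hspe1 (0.95).

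Both knockdowns were also set against the SCR HS arrays, which the 2 comparisons share. Of all genes, 14.3% were higher and 14.4% lower in SSBP1-KD HS than in SCR HS, and 13.1% were higher and 10.7% lower in HSF1-KD HS. Hspa1a was lower than in SCR HS with both, by a log2 difference of -0.72 with SSBP1 knockdown and of -3.71 with HSF1 knockdown. Bag3, a co-chaperone that links HSP70 to small HSPs, differed by -1.19 and -1.80, and Dnajb1 by -1.33 and -3.14. Hspe1, the mitochondrial HSP10, differed from SCR HS by -0.18 with SSBP1 knockdown (adjusted p = 0.103, not called) and by -1.13 with HSF1 knockdown (adjusted p = 1.13e-07).

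Chaperones of the cytoplasm and nucleus were then counted in 4 lists, to be read beside 11.6% higher and 14.1% lower of all genes. Of 59 measured genes of the HSP70 and HSP110, HSP40, small HSP and BAG, and HSP90 lists together, 26 were higher, 7 were lower and 26 were not called, with a median of 0.12. Among them 13 were heat-induced in SCR cells, whose arrays form no part of the difference itself. All 13 were higher in SSBP1-KD HS with a median of 0.70. Most of the chaperones that the study names are among these 13, so this count and the earlier one overlap. The other 46 counted 13 higher and 7 lower genes with a median of 0.04. The HSP90 list counted 9 higher and 1 lower of 16, with Ahsa1, the activator of the HSP90 ATPase, at 0.45, the co-chaperone Ptges3 at 0.43 and the immunophilin Fkbp4 at 0.37, but none of its members passed a fold of 1.5. Hspa8, the constitutive HSP70, differed by 0.18 (adjusted p = 0.00448). Hspa14, a ribosome-associated HSP70, was lower by a log2 difference of -0.24 (adjusted p = 0.0021), and it was one of the 7 lower genes.

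A small nucleolar RNA annotated inside Hspa8, Snord14e, gave the second largest difference. Its probe set read 12.45, 12.53 and 12.56 in SSBP1-KD HS and 10.23, 10.26 and 10.31 in HSF1-KD HS, without overlap. The difference was 4.74-fold (log2 2.25, SE 0.09, adjusted p = 1.09e-09), against 0.18 for the Hspa8 probe set. Snord14e and RNA of its host gene cannot be told apart on this probe set.

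The TRiC chaperonin, the ring that folds actin and tubulin, and prefoldin counted 7 higher (53.8%) and no lower genes of 13. Of all genes 11.6% were higher and 14.1% lower. The median of this list was 0.18. Its largest members were Cct5 (0.47), Cct3 (0.46), Cct4 (0.36) and Cct7 (0.32), each by less than a fold of 1.5. Heat had moved these 4 genes in SCR cells by -0.04 to 0.06. Unheated, the same list counted 7 higher genes and no lower gene, beside 12.9% and 16.6% of all genes.

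The count was extended to all heat-induced genes. In SCR cells 120 genes (0.602%) rose and 130 (0.652%) fell with heat by a fold above 1.5 at an unadjusted p under 0.05. Of the 120 heat-induced genes, 43 were higher in SSBP1-KD HS, 17 were lower and 60 were not called, with a median of 0.03. The lower count was close to the 14.1% of all genes, and the higher count was above the 11.6%. Leaving out the chaperone lists left 105 genes, of which 28 were higher and 17 lower with a median of 0.00. Of the 130 genes lowered by heat, 28 were higher and 6 were lower. The mean of SSBP1-KD HS lay between HSF1-KD HS and SCR HS for 43 of the 120, and that of HSF1-KD HS lay between those of SSBP1-KD HS and SCR HS for 25. Of the 41 genes that heat raised over 2-fold, 19 were higher and 6 were lower in SSBP1-KD HS.

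**Figure D2:**
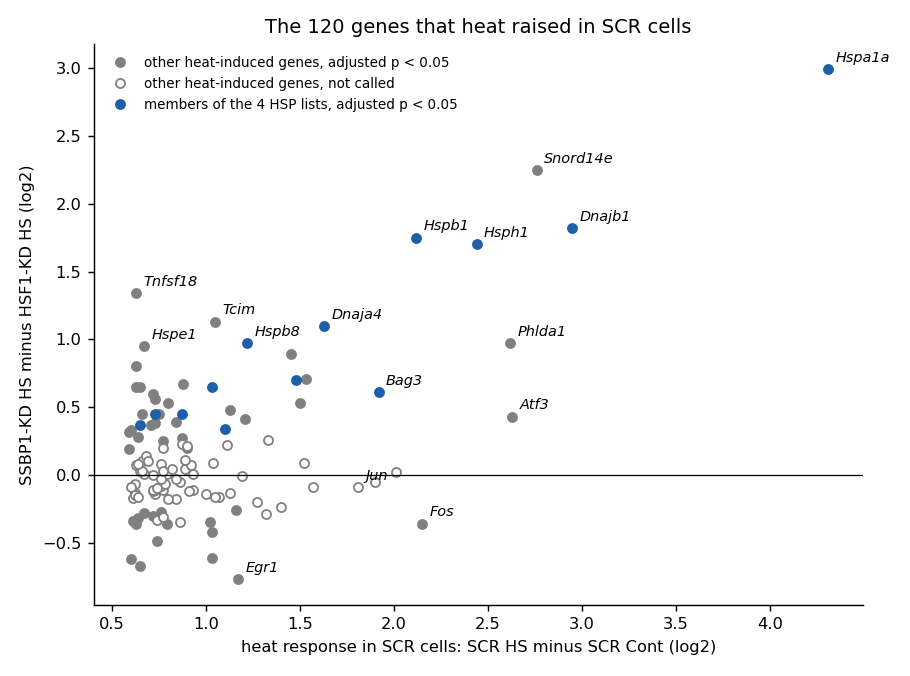
The 120 genes raised by heat in SCR cells, each a point, with the SCR heat response (log2) on the horizontal axis and SSBP1-KD HS minus HSF1-KD HS (log2) on the vertical axis. Blue points are members of the 4 HSP lists, filled grey points other called genes and open points genes not called. The 13 blue points all lie above 0, up to Hspa1a at 2.99, while Fos (-0.36) and Egr1 (-0.77) lie below.

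Immediate-early genes, the transcription factors and signalling genes that stress and growth factors switch on within minutes, counted 16 higher and 5 lower of 40 in SSBP1-KD HS, with a median of 0.09. The higher count was above the 11.6% of all genes, and the lower, at 12.5%, was close to the 14.1%. Without heat 21 were higher and 2 lower, beside 12.9% and 16.6% of all genes. Egr1, a zinc-finger factor, read 11.49, 11.56 and 11.57 in SSBP1-KD HS and 12.37, 12.28 and 12.27 in HSF1-KD HS, without overlap and against the direction of the HSP genes (1.7-fold lower, log2 -0.77, SE 0.07, adjusted p = 1.51e-06). Fos, a subunit of AP-1, read 8.85, 8.82 and 8.88 against 9.13, 9.39 and 9.12 (log2 -0.36, adjusted p = 0.0165), a call lost without HSF1-KD HS replicate 2 (adjusted p = 0.0911) or SSBP1-KD HS replicate 2 (0.0542). Jun, its partner, differed by -0.09 (adjusted p = 0.256). Higher were Phlda1 (0.97), which heat raised by 2.62 in SCR cells, the AP-1 member Fosl1 (0.77), the kinase Plk2 (0.71) and the stress factor Atf3 (0.43). Without heat these genes differed by 0.50, 0.73, 0.63 and 0.43. Heat changed Fosl1 by -0.19 and Plk2 by -0.38 in SCR cells. The 5 lower immediate-early genes became 3 without HSF1-KD HS replicate 2 or SSBP1-KD HS replicate 2. MAP kinase phosphatases and feedback inhibitors, which shut the same pathways down, counted 8 higher and 2 lower of 19. Dusp4 differed by 0.89, Dusp10 by 0.58, Dusp1 by 0.53 and Spry2 by 0.40. Without heat this list counted 9 higher and 2 lower, and the same genes differed by 1.02, 0.49, 0.66 and 0.58.

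The same 2 knockdowns without heat showed how much of the difference was there before heat shock. In SSBP1-KD Cont against HSF1-KD Cont, which share no array with the heated pair, 2564 genes (12.9%) were higher and 3305 (16.6%) were lower. Of the 2313 genes higher after heat 1696 (73.3%) were also higher without heat, and of the 2805 lower genes 2194 (78.2%) were also lower. Read from the unheated side, 66.1% of the higher and 66.4% of the lower genes kept their call after heat. Called the opposite way without heat were 14 of the higher and 6 of the lower genes. Across all genes the 2 differences correlated with Pearson's r = 0.795, and across the 120 heat-induced genes with r = 0.513, where genes are not independent replicates. SSBP1-KD Cont replicate 1 stood apart from the other arrays (mean absolute residual 0.152, against 0.07 to 0.11 in the other 17). It enters the differences of this comparison and the next, but not the heated difference. The spread behind the heated p-values came from a fit over all arrays, and so includes this array. A fit of only the arrays compared, without it, called 1927 higher and 2397 lower genes between the heated knockdowns. That fit also left out other arrays, so the effect of this array alone on the heated calls was not tested.

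The heat response itself, heated minus unheated, was tested between the 2 knockdowns as an interaction. It was greater with SSBP1 knockdown for 58 genes (0.291%) and smaller for 10 (0.0502%), and 2533 genes had an unadjusted p under 0.05. The difference was 2.86 for Hspa1a (adjusted p = 2.79e-10), 1.63 for Dnajb1 (6.68e-07), 1.15 for Hsph1 (7.63e-05), 1.05 for Hspb1 (7.05e-05) and 0.77 for Bag3 (0.0013). By contrast Hspb8 (0.24, adjusted p = 0.327), Hspe1 (0.22, 0.475) and Hspd1 (0.15, 0.444) were not called. These 3 were higher without heat as well, by 0.73, 0.73 and 0.52. Smaller with SSBP1 knockdown was the heat response of Egr1, whose heated and unheated means differed by 0.71 in SSBP1-KD cells, 1.69 in HSF1-KD cells and 1.17 in SCR cells (difference -0.99, adjusted p = 0.000147), and of Jun (-0.55, adjusted p = 0.00365). Of the 58 genes 8 were heat-induced in SCR cells, and of the 10 genes 3 were. Leaving out any 1 of the 12 arrays left 16 to 52 genes with a greater and 4 to 15 with a smaller response, and the arrays concerned are named with the processing alternatives.

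**Figure D3:**
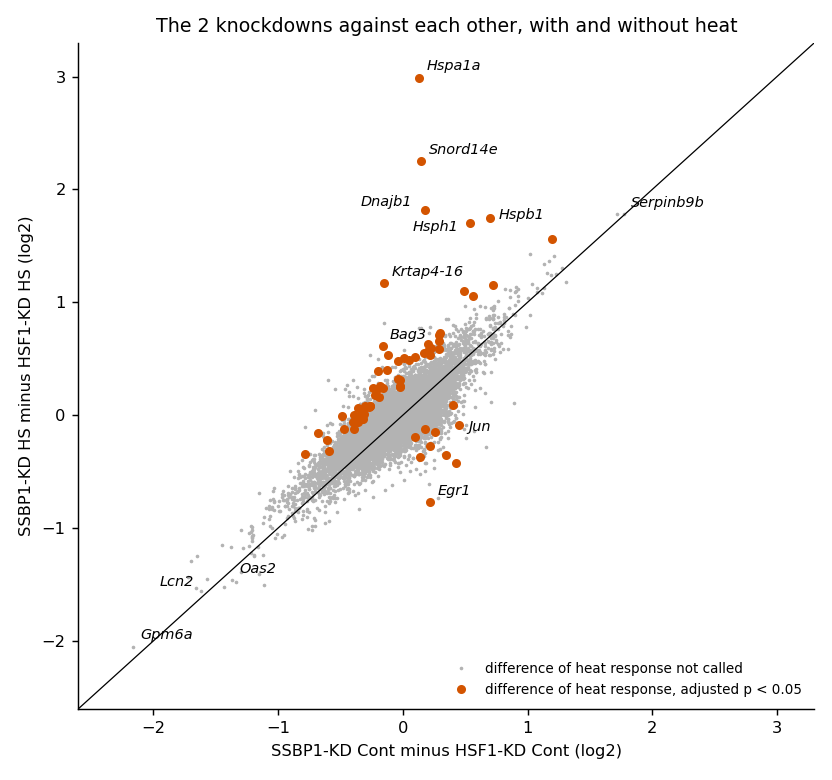
Difference between the knockdowns without heat (horizontal, log2) and with heat (vertical, log2) for each of the 19938 genes, with the diagonal of equal differences. Orange points are the 68 genes whose heat response differed (adjusted p under 0.05). Most genes lie along the diagonal, such as Gpm6a at -2.16 and -2.05, while Hspa1a lies far above it at 0.13 and 2.99 and Egr1 below it at 0.22 and -0.77.

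Interferon-stimulated genes, the antiviral genes that interferon signalling turns on, were lower almost throughout. Of 31 measured, 28 were lower in SSBP1-KD HS, beside 14.1% of all genes, and none was higher. The other 3 (Psmb8, Oasl1 and Psmb9) were not called, and the median was -0.69. The arrays did not overlap for 29 of the 31, nor for 41.2% of all genes. Without heat 29 of the 31 were lower, beside 16.6% of all genes. Oas2, an RNA-sensing 2-5A synthetase, read 8.57, 8.52 and 8.61 in SSBP1-KD HS and 9.94, 10.09 and 10.06 in HSF1-KD HS, or 2.76-fold lower (log2 -1.46, SE 0.08, adjusted p = 1.43e-08). Usp18, which restrains interferon signalling, differed by -1.24 and the guanylate-binding Gbp3 by -1.24. Irf9 read 9.66, 9.69 and 9.70 against 10.24, 10.33 and 10.41 (-0.64), and Stat2 differed by -0.54.

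Against SCR HS the interferon-stimulated genes moved apart in both directions. With HSF1 knockdown 21 of the 31 were higher and Tap1 was lower (-0.27), with a median of 0.42. Of all genes 13.1% were higher and 10.7% lower in that comparison. With SSBP1 knockdown 23 were lower and Oasl1 was higher (0.40), with a median of -0.28, beside 14.4% lower and 14.3% higher of all genes. For 28 of the 31 the HSF1-KD HS mean was the highest of the 3 heated groups. All groups had received an adenovirus, and the part of the virus or of the hairpins in these levels was not tested. An ISRE core, the interferon-response site (GAAANNGAAA on either strand, overlapping matches counted), was found in the 250 bases before 9 of 24 of these genes with a promoter sequence, or 37.5%, beside 529 of all 15563, or 3.4%. The windows before Gbp3 and Ifit3 are shown because both were lower (-1.24 and -0.69) and both hold the core on the opposite strand, so that the capitals show its reverse complement.
Gbp3 promoter (chr3:142559976-142560035, plus strand): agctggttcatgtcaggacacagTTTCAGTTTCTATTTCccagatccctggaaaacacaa
Ifit3 promoter (chr19:34583364-34583423, plus strand): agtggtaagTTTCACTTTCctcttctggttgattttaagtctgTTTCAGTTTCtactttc

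Sterol and fatty acid synthesis genes, which SREBP factors switch on when cellular sterol is low, formed the most uniform list. Of 27 measured, 26 were lower in SSBP1-KD HS than in HSF1-KD HS, beside 14.1% of all genes, and Acly was higher (0.21). The median was -0.50. The arrays did not overlap for any of the 27, nor for 41.2% of all genes. The same split of 26 and 1 was found without heat, beside 16.6% lower and 12.9% higher of all genes. Dhcr7, the last enzyme of cholesterol synthesis, read 9.45, 9.44 and 9.46 against 10.65, 10.61 and 10.55 (2.23-fold lower, log2 -1.16, SE 0.06, adjusted p = 6.56e-09). Cyp51 and Msmo1, which demethylate lanosterol and its product, differed by -0.99 and -0.75, and Idi1, of the isoprenoid branch, by -0.86. The SREBP genes Srebf2 and Srebf1 are members of this list and among the 26 lower genes, with log2 differences of -0.48 and -0.59. Against SCR HS 20 were lower and Fasn was higher (0.19) with SSBP1 knockdown, beside 14.4% lower and 14.3% higher of all genes. With HSF1 knockdown 15 were higher and Fdft1 was lower (-0.20), beside 13.1% higher and 10.7% lower of all genes. The medians were -0.41 with SSBP1 knockdown and 0.14 with HSF1 knockdown. A sterol element TCACNCCAC was found, on either strand, before 1 of 21 (Hmgcs1), beside 1.2% of all promoters.

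**Figure D4:**
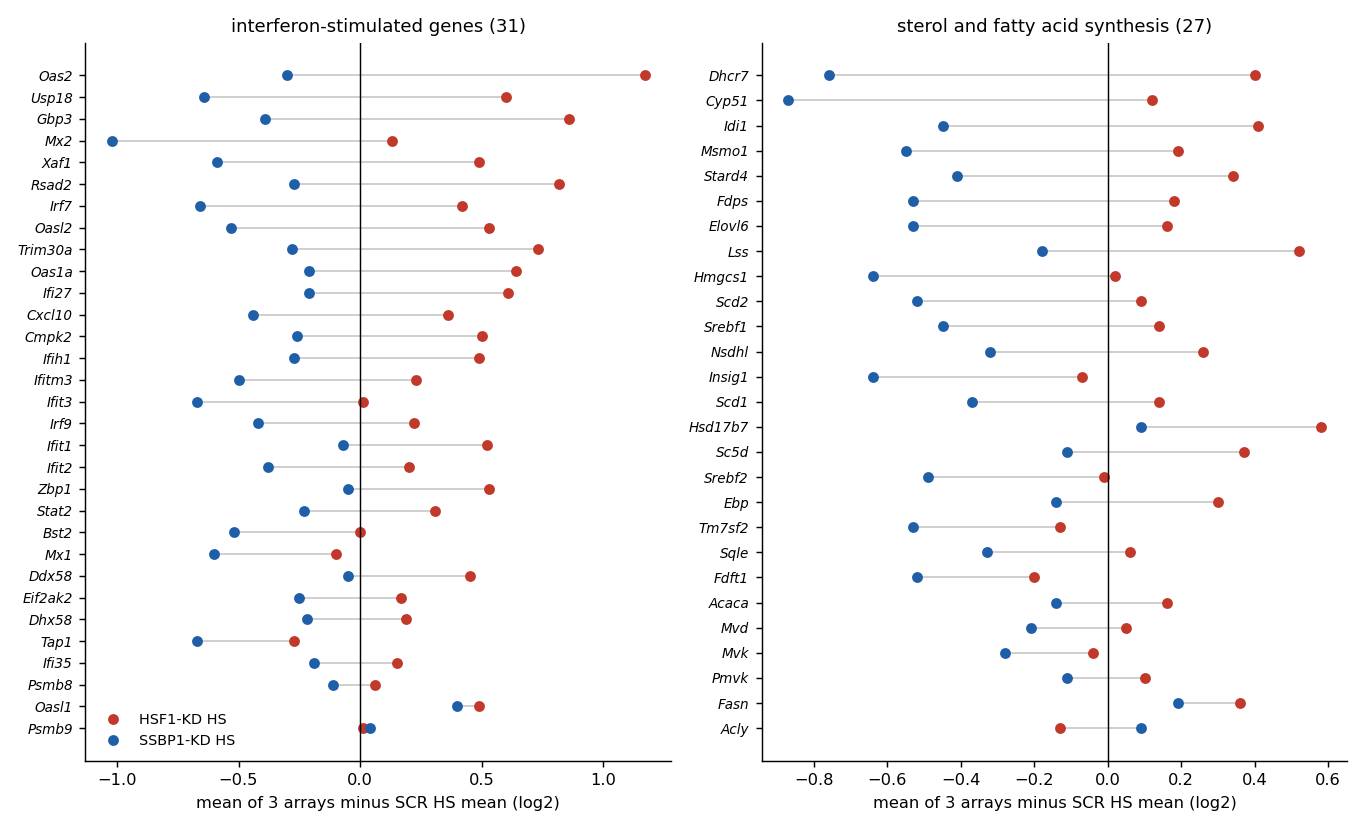
Mean of the 3 SSBP1-KD HS arrays (blue) and of the 3 HSF1-KD HS arrays (red), each minus the SCR HS mean (log2), for 31 interferon-stimulated genes and 27 sterol and fatty acid synthesis genes. Grey lines join the 2 means of a gene. The blue point lies left of the red point for all sterol genes except Acly, and Oas2 shows the widest gap (-0.30 and 1.17).

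Among endoplasmic reticulum chaperones and genes of the unfolded-protein response, 17 of 28 (60.7%) were lower in SSBP1-KD HS, beside 14.1% of all genes. Another 2 (7.14%) were higher, beside 11.6%, and the median was -0.21. The lower ones included the disulfide isomerase Pdia6 (-0.57), the quality-control lectin Os9 (-0.42) and Creld2 (-0.39). Dnajb9, an HSP40 of the same compartment, went the other way (0.60), as did the sensor Atf6. Unheated, 22 were lower and 2 higher, beside 16.6% and 12.9% of all genes. None of the 17 passed a fold of 1.5.

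Mitochondrial genes were counted because SSBP1 is a mitochondrial protein. Mitochondrial chaperones and proteases counted 12 higher (54.5%) and 2 lower (9.09%) genes of 22, beside 11.6% and 14.1% of all genes. The median was 0.17, and the count of higher genes was 7 without HSF1-KD HS replicate 3. Hspe1 read 12.50, 12.64 and 12.52 in SSBP1-KD HS against 11.55, 11.64 and 11.62 in HSF1-KD HS, and its partner Hspd1, the HSP60, read 12.68, 12.66 and 12.62 against 11.93, 12.01 and 12.02. The matrix protease Lonp1 differed by 0.39 (adjusted p = 0.000232). In the list for replication and transcription of mitochondrial DNA 2 of 21 were higher and 3 lower, close to the share of all genes. The 3 lower genes include Ssbp1 itself, the target of the hairpin. The nuclease and helicase Dna2 differed by -0.72, the packaging factor Tfam by -0.34 (adjusted p = 0.073) and the polymerase Polg by -0.01 (0.903). Dna2 differed from SCR HS by 0.11 with SSBP1 knockdown and by 0.83 with HSF1 knockdown, and between the unheated knockdowns by -0.59. The respiratory chain list counted 8 higher (18.6%) and 4 lower (9.3%) of 43, beside 11.6% and 14.1% of all genes, with a median of 0.04. The largest differences in it were those of the complex I subunits Ndufa10 (0.64) and Ndufa9 (0.51). Vdac1, the outer membrane channel, differed by 0.16 (adjusted p = 0.027), a call lost without HSF1-KD HS replicates 1 or 3 (0.0738 and 0.104) or SSBP1-KD HS replicates 1 or 3 (0.104 and 0.0833). No transcript of mitochondrial DNA had a probe set of its own here.

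In the list of the HSF family and HSF1 coactivators, the brahma-related ATPase Smarca4 (BRG1) was higher in SSBP1-KD HS by 0.34 (adjusted p = 2.41e-05). The deacetylase Sirt1 was higher by 0.53. Strap, placed on this list by its symbol, was higher by 0.61, and whether this gene works with HSF1 was not tested. Daxx was lower (-0.30). The HSF family and coactivator list counted 7 higher and 3 lower of 23, beside 11.6% and 14.1% of all genes. The higher count was above the share of all genes, and the lower count was close to it. The median was 0.02, and Hsf4 differed by -0.23. Smarca4, Sirt1, Strap and Daxx differed alike without heat, by 0.32, 0.69, 0.66 and -0.30.

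Proteasome subunits counted 13 higher (41.9%) and no lower of 31, beside 11.6% and 14.1% of all genes, with a median of 0.15. Psma2 differed by 0.50, and none passed a fold of 1.5. Without SSBP1-KD HS replicate 1 only 6 were higher. Collagen and matrix genes leaned the other way, with 16 lower (40%) and 6 higher (15%) of 40, beside 14.1% and 11.6% of all genes. Fmod and Ogn, small proteoglycans of the matrix, differed by -0.78 and -0.55, and Col6a2 by -0.48, while Fbln5, which assembles elastic fibres, was higher (0.94). Of 14 complement genes 6 (42.9%) were lower and 1 was higher. C1s1 differed by -1.53 and C1ra, its partner protease, by -0.44.

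**Figure D5:**
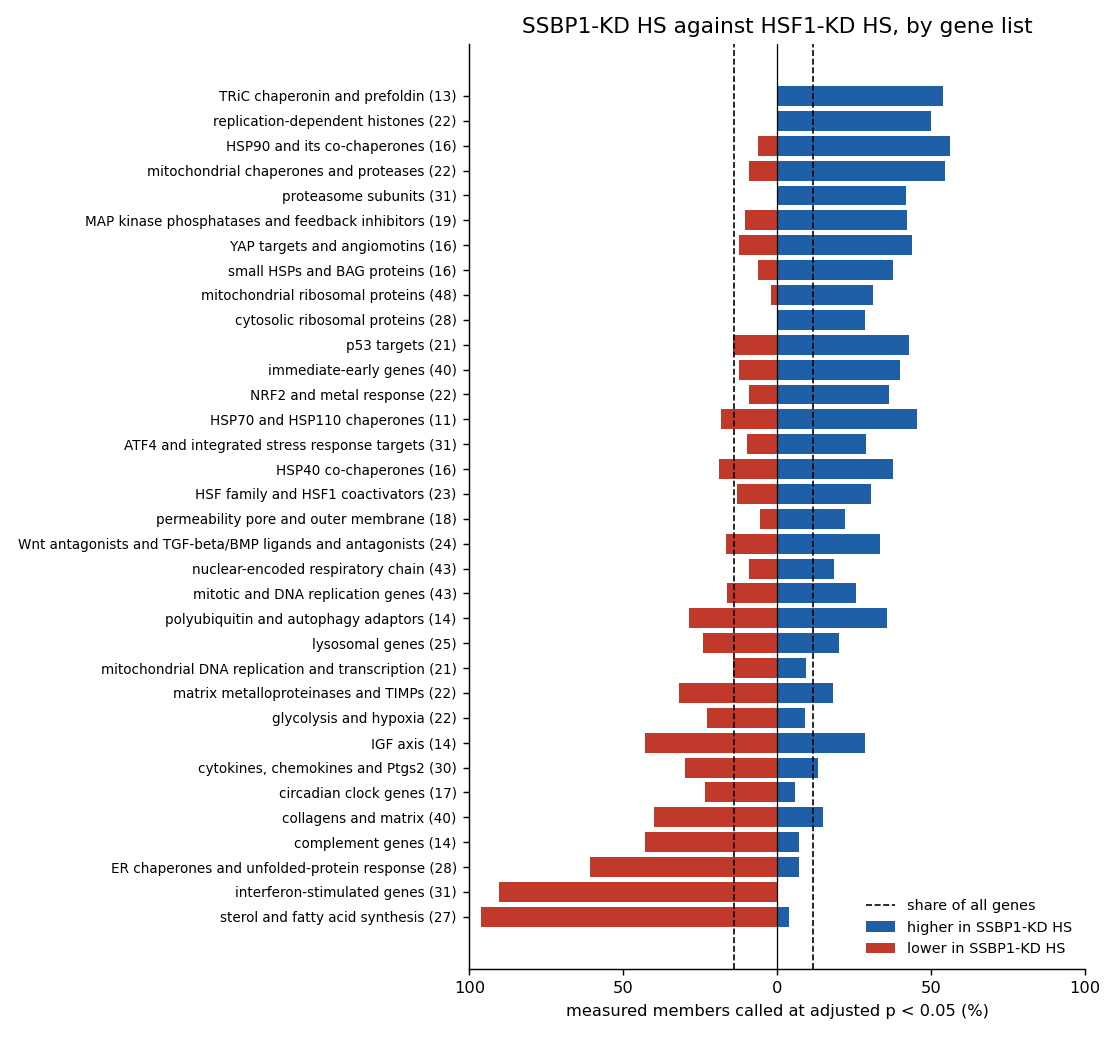
Share of the measured members of each gene list called higher (blue, to the right) and lower (red, to the left) in SSBP1-KD HS than in HSF1-KD HS, in percent, with the number of measured members in brackets. Dashed lines mark the shares over all genes, 11.6% higher and 14.1% lower. Sterol genes (26 of 27) and interferon-stimulated genes (28 of 31) reach furthest to the left, and the HSP90 list (9 of 16) furthest to the right.

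The largest single differences outside the HSP genes were mostly present without heat. Gpm6a, a membrane glycoprotein best known from neurons, read 7.90, 7.91 and 8.07 in SSBP1-KD HS and 10.03, 9.95 and 10.06 in HSF1-KD HS, or 4.15-fold lower (log2 -2.05, SE 0.13, adjusted p = 6.99e-08), and it differed by -2.16 without heat. The acute-phase and innate genes Saa3 (-1.56), Lcn2 (-1.45), Chil1 (-1.39), the neutrophil chemokine Cxcl5 (-1.29) and the C1 inhibitor Serping1 (-1.25) were lower, and so were the oxysterol hydroxylase Cyp39a1 (-1.52), the endothelial lipase Lipg (-1.43) and the selenium carrier Selenop (-1.25). Higher were the serpin Serpinb9b (1.78), the uridine-cytidine kinase Uck2 (1.56), Glipr1 (1.43), the mitochondrial ATP-Mg/Pi carrier Slc25a24 (1.30) and the collagenase Mmp13 (1.26). The actin genes Actg2 (1.37) and Acta2 (1.25) were also higher. Acta2 read 13.02, 13.06 and 12.95 against 11.66, 11.81 and 11.80 and differed by 1.23 without heat.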

How the data were processed

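RNA of 18 samples of immortalized MEF cells was hybridized to Affymetrix Mouse Gene ST arrays (200 ng of total RNA, 3 arrays per group). The authors normalized the arrays by RMA, with Partek 6.5 per the submitters' processing notes, and deposited log2 signals for 35557 probe sets. These values were used as deposited. Of the probe sets 21789 carry 1 gene symbol, 1621 several and 12147 none, and 21698 were matched to RefSeq (GRCm38.p6), which also gave the promoter sequences. Each of 19938 genes was read from its brightest probe set. A gene's symbol came from the platform annotation, which can be old.

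Groups were taken from the sample labels. One mean per group was fitted over all 18 arrays in limma 3.58.1 (R 4.3.3) with moderated variances (12 residual and 2.36 prior degrees of freedom), and p-values were Benjamini-Hochberg adjusted over all probe sets. Only 3 arrays per group limit the precision, and depth does not apply to arrays. The fit was checked on simulated data. Plots came from matplotlib 3.10.9 (Python 3.11.15).

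The comparison, gene lists and tests were chosen with earlier results of these data known. Named were Ssbp1, the chaperones of the study, the 15 largest non-overlapping differences per direction, the 8 largest differences of heat response per direction and up to 4 members of each of 40 lists with the largest called differences. A few further genes of interest were added after their values were seen, among them Hspa8, Hsf4, Fos, Atf3, Tfam, Polg, Irf9, Stat2, Srebf1 and Srebf2. Unnamed transcripts and clones were skipped.

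Replicate numbers were checked for pairing. Of 45 same-numbered pairs of arrays, 6 had residual correlations above 0.1 (range -0.276 to 0.171), so the numbers were not taken to pair the samples. Alternatives were a replicate block, brighter probe sets, array medians set to 1 value, probe sets with 1 symbol, the compared arrays alone, a further quantile normalization, a trended robust prior, the methods' t-test, array weights, each array left out, a fold above 1.5 as well, a fold above 2 for heat induction and second probe sets.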

Additional observations from a re-analysis of the deposited data

Results flagged for a closer look

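The heat responses of the 2 knockdowns differed in the interaction test for the genes listed here, most of them the largest in their direction. Each value is the heat response of SSBP1-KD cells minus that of HSF1-KD cells on the log2 scale, with limma's adjusted p under 0.05. Greater with SSBP1 knockdown were Hspa1a (2.86), Snord14e (2.10), Dnajb1 (1.63), Krtap4-16 (1.33), Hsph1 (1.15), Hspb1 (1.05), Bag3 (0.77), Edn1 (0.64), Dnaja4 (0.60) and Ccn1 (0.53). Timp2 (0.38) and Uck2 (0.36), which are named for other reasons, were also greater. Krtap4-16, annotated as a hair keratin-associated gene, read 7.25, 7.06 and 7.22 in SSBP1-KD HS and 5.95, 6.11 and 5.95 in HSF1-KD HS. It was higher in SSBP1-KD HS than in SCR HS by 1.05, whereas the HSP genes listed here had lower means than in SCR HS. Edn1 encodes the peptide endothelin 1, and its mean differed between heated and unheated cells by 0.57 in SSBP1-KD cells and by 0.80 in SCR cells.

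Smaller with SSBP1 knockdown were the heat responses of Egr1 (-0.99), Tas2r143 (-0.86), Jun (-0.55), Ppp1r10 (-0.49), Serp1 (-0.41), Crk (-0.30), Errfi1 (-0.30) and Rfk (-0.29). Jun differed by -0.09 between the heated groups (adjusted p = 0.256, not called) and was higher with SSBP1 knockdown without heat (0.45). The calls for Crk, Errfi1, Rfk, Serp1 and Uck2 were lost with a replicate block and in most settings that left out 1 array, for Uck2 in all 12 of them. Those for Dnaja4 were lost without HSF1-KD HS replicates 1 or 2 or SSBP1-KD HS replicate 1, and those for Edn1 without HSF1-KD HS replicates 1 or 3, SSBP1-KD Cont replicate 3 or SSBP1-KD HS replicate 3. The call for Timp2 was lost without HSF1-KD Cont replicate 3, HSF1-KD HS replicates 1 or 3, SSBP1-KD Cont replicate 3 or SSBP1-KD HS replicates 2 or 3. The call for Ccn1 was lost without HSF1-KD Cont replicate 2, HSF1-KD HS replicates 1 or 2, SSBP1-KD Cont replicates 2 or 3 or SSBP1-KD HS replicates 1 or 3.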

How the results depend on the processing

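Of 187 named genes called between the heated knockdowns, 161 were called under every alternative other than the added fold requirement, 26 lost the call under at least 1 of these (18 under the methods' t-test) and none reversed. A fold above 1.5 as well kept 84 of the 187. Of 20 named genes called for the difference of heat response, 10 kept the call under every alternative other than the added fold, which kept 11, and none reversed. The numbers of genes called moved as follows. Requiring a fold above 1.5 as well left 253 higher and 287 lower genes between the heated knockdowns, 160 and 413 between the unheated ones, 118 and 129 for SCR heat, 205 and 426 for SSBP1-KD HS against SCR HS, 142 and 319 for HSF1-KD HS against SCR HS, 10 and 3 for the difference of heat response, and 21 and 4 among heat-induced genes. A fold above 2 for heat induction left 19 and 6 of those. The methods' t-test, with its adjusted p, gave 1177 and 1794 between the unheated knockdowns, 931 and 980 for SCR heat, 1661 and 1310 for HSF1-KD HS against SCR HS, 9 lower heat-induced genes, and 20 genes with a smaller heat response. Fitting only the arrays compared gave 1145 and 1855 unheated, and 9 and 6 for the difference of heat response.

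The difference of heat response was the least stable count, from 58 greater and 10 smaller. It was 25 and 5 with a replicate block, 319 and 80 over the brighter probe sets, 88 and 6 with array medians set to 1 value, 137 and 29 over probe sets with 1 symbol, 222 and 65 with a trended robust prior and 221 and 111 with array weights. Leaving out 1 array gave 16 (without SSBP1-KD HS replicate 3) to 52 (without SSBP1-KD Cont replicate 1) greater and 4 to 15 smaller. The greater count was 20 without SSBP1-KD HS replicate 1, SSBP1-KD Cont replicate 3 or HSF1-KD HS replicate 3, 22 without HSF1-KD HS replicate 2 or HSF1-KD Cont replicate 3, 23 without HSF1-KD HS replicate 1 or HSF1-KD Cont replicate 2, and 32 without SSBP1-KD HS replicate 2. The heated comparison ranged from 1782 to 2132 higher and 2218 to 2696 lower genes. The cause of these shifts was not tested.

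The replicate block, used although the numbers were not taken to pair the samples, gave 2244 higher and 2680 lower genes between the heated knockdowns. Only 3 arrays per group limit small differences, and no detection call was given for dim probe sets.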

Other observations

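Further gene groups were counted in the same comparison of the heated knockdowns, in which 11.6% of all genes were higher and 14.1% lower. Replication-dependent histone genes, which are transcribed in S phase, counted 11 higher and no lower of 22 in SSBP1-KD HS (median 0.22). H1f2 differed by 0.73, and only 4 of them were higher by the methods' t-test. Unheated, 4 were higher and 2 lower, beside 12.9% and 16.6% of all genes. Mitochondrial ribosomal proteins counted 15 higher and 1 lower of 48, with Mrps22 at 0.41 and Mrps6, the lower gene, at -0.66. The higher count was 8 without HSF1-KD HS replicate 3 and 9 without SSBP1-KD HS replicate 1. Cytosolic ribosomal proteins counted 8 higher of 28, and 4 without either of these arrays.

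NRF2 and metal-response genes counted 8 higher (36.4%) and 2 lower (9.09%) of 22, beside 11.6% and 14.1% of all genes. The higher count was 5 without HSF1-KD HS replicates 1 or 3 or SSBP1-KD HS replicate 1. Hmox1, the heme oxygenase, read 11.02, 10.94 and 10.83 in SSBP1-KD HS and 10.24, 10.31 and 10.14 in HSF1-KD HS (log2 difference 0.70), and Gclc, of glutathione synthesis, differed by 0.52. Of the ATF4 targets 9 of 31 (29.0%) were higher and 3 (9.68%) were lower. Unheated, 14 were higher and 5 lower, beside 12.9% and 16.6% of all genes. Against SCR HS 17 were lower and 1 higher with SSBP1 knockdown, beside 14.4% and 14.3% of all genes. With HSF1 knockdown 19 were lower and 1 higher, beside 10.7% and 13.1%. The amino acid transporter Slc7a5 differed between the heated knockdowns by 0.81 and the tryptophanyl-tRNA synthetase Wars by 0.72. Against SCR HS Slc7a5 differed by -0.33 with SSBP1 knockdown and -1.14 with HSF1 knockdown, and Wars by 0.00 and -0.73. The IGF axis held 6 lower and 4 higher of 14, among them Igfbp2 (-1.11) and Igf2 (-0.90), and 3 lower without HSF1-KD HS replicate 2 or SSBP1-KD HS replicate 2. Sfrp2, a secreted Wnt antagonist, was lower (-0.98) and the BMP antagonist Grem1 was higher (0.67).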
